A study of Mus musculus with 2 samples.

Results

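The 41 genes described here carry out DNA replication during S phase, and they were taken by symbol from the 20938 genes that the tables of both libraries list. The list is defined by role in replication and uses no measured value, although it was drawn up with earlier results of these data known. All 41 were among the 16659 genes whose mean level over both libraries was at least 1. RNA-seq was performed on Treg cells from the spleen on day 7 post-transplantation, with 1 library from Foxp3-Mettl14f/+ cKO mice and 1 from littermate controls. METTL14 is a subunit of the complex that writes N6-methyladenosine (m6A) on RNA, and the study asked how its loss in Treg cells affects their transcriptome after islet transplantation. The cKO mice carried 1 floxed Mettl14 allele and a Cre driven from Foxp3, so that deletion was heterozygous and directed to cells that express Foxp3. Per the study's methods the littermate controls carried floxed Mettl14 without Cre, while the labels call them wild type. The labels also name a Foxp3 knockdown as the genotype of the cKO library, and the genotype of the protocol text is used here. Both groups were on a C57BL/6J background, had been made diabetic with streptozotocin, received BALB/c islets under the kidney capsule and were sampled without mAbs treatment. Treg cells were enriched on magnetic beads as CD4+CD25+ cells after lysis of erythrocytes, and it is not stated how many mice went into a library.

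DNA replication begins in G1, when the origin recognition complex, CDC6 and CDT1 load the MCM2-7 helicase onto origins, a step called licensing. In S phase CDC45 and the GINS complex activate the helicase, DNA polymerase alpha with primase starts each strand, and polymerases delta and epsilon extend it on the sliding clamp PCNA. Many of these genes are transcribed in a burst at the G1/S transition under the E2F transcription factors, so that their mRNA is abundant in cells that divide and scarce in cells that rest. Treg cells in lymphoid tissue include a dividing fraction, and precursors of red cells and neutrophils divide actively as well.

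Each deposited value was a whole read count divided by 1 size factor per library, and 20239325 reads of the control and 18327535 of the cKO library were recovered from them. A level below is the deposited value, and a log2 fold change compares the cKO level plus 1 with the control level plus 1. Each genotype has 1 library, so the spread between replicates is unknown, no test between genotypes is possible, and "lower" means at least 1.5-fold lower only where that is said. The 95% intervals are exact by the Clopper-Pearson method, from how a gene's reads divided between the libraries, and they cover only the error of counting, because reads carried no molecular identifiers and so are not independent molecules. Mettl14 had 948 reads in the control and 652 in the cKO library, which gives a log2 fold change of -0.31 (95% interval -0.45 to -0.16), and it stood at 0.0065 when 16 T cell marker genes were set equal between the libraries. Foxp3 had 1547 and 1361 reads, a log2 fold change of 0.05 (-0.06 to 0.15), -0.04 when the library totals were set equal and 0.36 with the T cell markers equal.

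The libraries held RNA of cell types other than the labelled one, in unequal amounts. Summed reads on the 16 T cell markers were 65646 in the control and 43986 in the cKO library, with a median log2 fold change of -0.31, and the 10 Treg markers had a median of -0.03. All 10 B cell markers and all 10 macrophage markers were higher in the cKO library by at least 1.5-fold, with medians of 2.47 and 2.63. Of the 17 erythroid markers found, 13 were at least 1.5-fold lower, with a median of -1.14 and 54966 against 24869 reads. The 10 mature neutrophil markers held more reads than the T cell markers in both libraries, 254134 and 308241. Of the 8 neutrophil precursor markers 4 were at least 1.5-fold lower (21944 and 10231 reads), as were all 4 haematopoietic progenitor markers (10246 and 4854 reads). In such bulk samples fewer cells of a type and less RNA per cell cannot be told apart.

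The replication genes were lower in the cKO library almost without exception. Their summed reads were 105124 in the control library, 0.519% of all reads (0.516 to 0.523), and 59530 in the cKO library, 0.325% (0.322 to 0.327). The summed level was 1.50-fold lower in the cKO library, a log2 ratio of -0.59 (-0.60 to -0.57). Of the 41 genes, 40 had a log2 fold change below 0, and Gins4 at 0.02 was the exception. At least 1.5-fold lower were 22 of the 41, beside 24.2% of all 16659 genes past the filter and 7.27% of the 9378 genes whose mean level was at least that of the least abundant of the 41. None of the 41 was at least 1.5-fold higher, beside 17.2% of all genes past the filter and 1022 of those 9378 genes. The interval lay below 0 for 38 of the 41, beside 34.0% of those 9378 genes, and the 3 whose interval held 0 were Gins4, Pola2 and Pold1. The median log2 fold change of the 41 was -0.61, with quartiles of -0.71 and -0.44. It stood beside -0.04 for all genes past the filter and 0.02 for those 9378 genes. A binomial test of each gene's recovered reads, exact and comparing libraries rather than genotypes, called the same 22 genes at an adjusted p under 0.1 with at least a 1.5-fold difference, and it called 17.5% of 14863 genes in that direction. The 14863 genes needed only 10 reads in both libraries together, whereas the least covered of the 41 had 437. At that depth a member past 1.5-fold would pass, so the match with the fold count adds no support. That test knows counting error only. With a biological coefficient of variation assumed in its place, edgeR's exact test called 2 of the 41 (Cdc6 and Gins2) at a coefficient of 0.2, beside 1488 (10%) of the 14863 genes, and 0 at 0.4, beside 3.83%. Over the 41 genes, which share the same libraries, the correlation of the log2 fold change with the level was -0.02 (Pearson r) and -0.04 (Spearman rho).

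**Figure D1:**
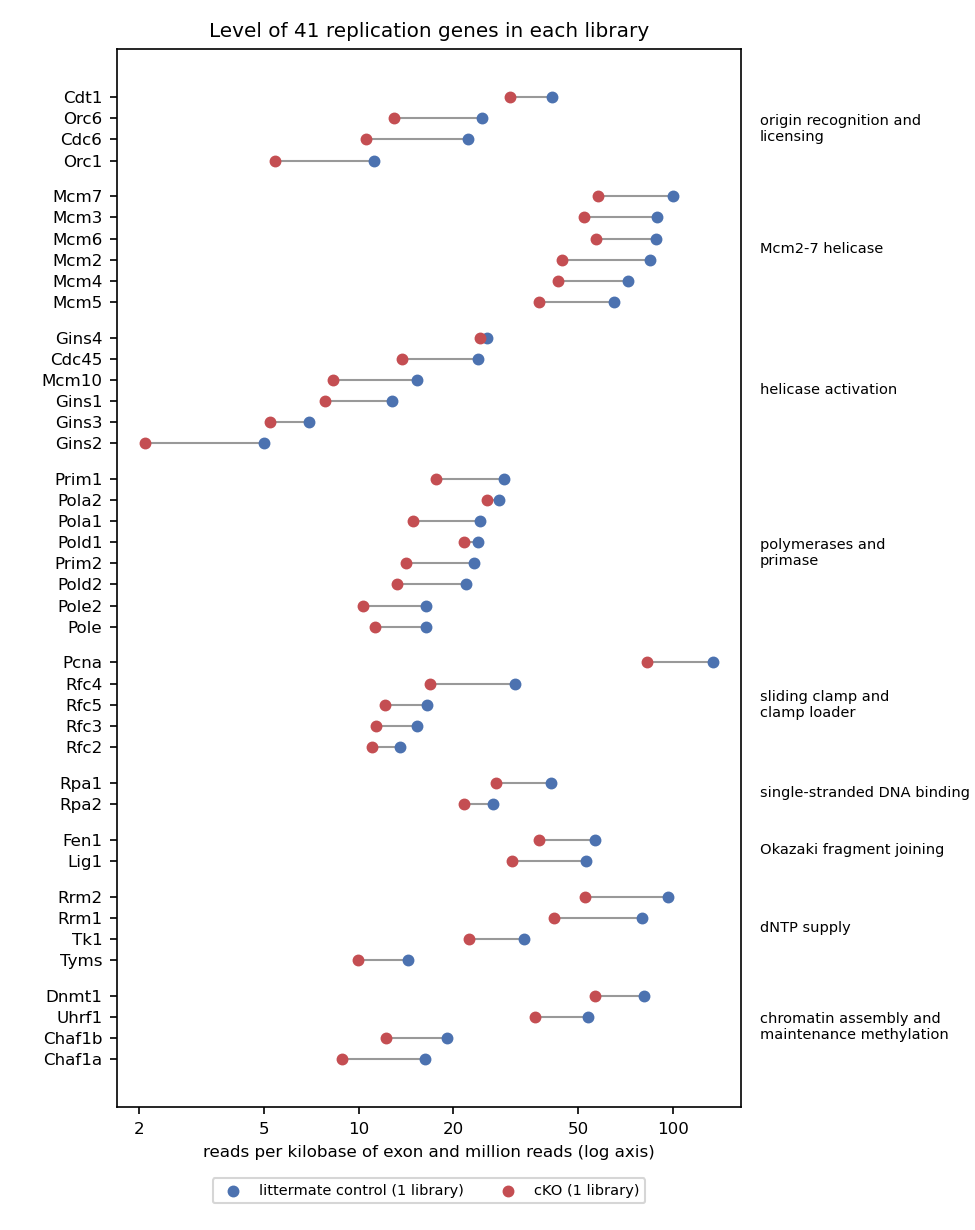
Level of each of the 41 replication genes in the littermate control library (blue) and the cKO library (red), in reads per kilobase of exon and 1000000 reads on a log axis, grouped by role and ordered within a role by the control value. On this scale, set by the library totals, every cKO point lies to the left of its control point, and the 6 helicase subunits, Pcna, Rrm1, Rrm2 and Dnmt1 hold the 10 highest control values.

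Levels can be set side by side between genes only per length of transcript, and the plot of levels by role gives reads per kilobase of exon and 1000000 reads. On that scale Pcna was the most abundant of the 41 in the control library at 134 and stood at 82.4 in the cKO library. The 6 subunits of the helicase, which act in equal numbers in 1 ring, lay close together between 64.9 (Mcm5) and 99.7 (Mcm7) in the control library. In contrast, the 4 subunits of GINS, also present once each in their complex, ranged in the control library from 5.02 (Gins2) to 25.6 (Gins4). Reads of transcripts that lack some of the exons counted in the length would lower such a value, and transcript usage was not measured.

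The 41 genes lie on 15 chromosomes of GRCm38, and Gins2, at chr8:120578633-120589304 on the minus strand, Orc1, at chr4:108579423-108614833 on the plus strand, and Cdc6, at chr11:98907801-98923940 on the plus strand, have the 3 lowest log2 fold changes. Exons of 15 of the 41 overlap exons of another gene, and for Pole2 and Rpa1 the other gene is on the same strand, so that their reads are uncertain however they were counted. For the other 13 the reads are uncertain where counting did not use strand. Near-identical pseudogene copies are annotated for Pcna and Tyms, whose counts may be split, and the other members were not screened for such copies. Promoter windows are given as a description, and their part in the differences was not tested. RefSeq windows from 250 bases before to 50 bases after a transcript start were at hand for 34 of the 41 genes. E2F letters were taken as TTTCCCGC, TTTGGCGC, TTTCGCGC or TTTGCCGC on either strand, where matches may overlap each other. They occurred in 15 of the 34 genes (44.1%), that is in 35.7% of their windows. Beside this stood 2.27% of all 32851 windows and 3.40% of the windows of genes past the filter. In a list of 31 mitosis genes, 27 had a window and 1 of these (3.70%) held them. Of 43 other replication genes 36 had a window and 9 of these (25%) held them. Of 18 E2F, pocket protein and G1/S cyclin genes 13 had a window and 7 of these (53.85%) held them, so the letters were not particular to the 41. The letters CCAAT on either strand occurred in 22 of the 34 genes (64.7%), beside 41.1% of all 27025 genes with a window and 42.6% of those past the filter. They were more frequent in the mitosis genes, in 21 of 27 (77.8%). In the other replication genes they occurred in 18 of 36 (50%) and in repair genes outside replication in 9 of 16 (56.25%). The letters TTTGAA or TTTAAA on either strand, the CHR element of mitosis genes, occurred in 10 of the 34 (29.4%) and in 23 of 27 mitosis genes (85.2%). Beside this stood 30.6% of all 27025 genes with a window and 25.1% of those past the filter. A match of letters is a description and not a site of binding. E2F letters were found in 7 of 18 genes at least 1.5-fold lower and in 8 of 16 others. CCAAT was found in 15 of the 18 and in 7 of the 16, and TTTGAA or TTTAAA in 5 of the 18 and 5 of the 16. This split uses the deposited values, and the number of genes at least 1.5-fold lower changed with the scaling.

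The stretches that hold E2F letters are shown for 5 of the 15 replication genes in which the letters were found. They were also found in 9 of 36 other replication genes, 7 of 13 E2F, pocket protein and G1/S cyclin genes and 1 of 27 mitosis genes. Each is read 5′ to 3′ on the strand of its gene, lies upstream of its RefSeq start outside annotated exons, and has the E2F letters in capitals. The Cdc6 stretch is chr11:98907987-98908046 on the plus strand, and that of Uhrf1 is chr17:56304102-56304161 on the plus strand, both within an intron of a longer transcript. The Mcm5 stretch is chr8:75109330-75109393 on the plus strand, where 2 matches overlap. The Mcm6 stretch is chr1:128359719-128359841 on the minus strand, with 3 matches of which 2 overlap, and the Pola1 stretch is chrX:93632260-93632319 on the minus strand.
Cdc6: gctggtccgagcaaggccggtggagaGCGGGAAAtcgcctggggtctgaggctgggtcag
Mcm5: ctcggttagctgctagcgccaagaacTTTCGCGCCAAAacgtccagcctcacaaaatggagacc
Mcm6: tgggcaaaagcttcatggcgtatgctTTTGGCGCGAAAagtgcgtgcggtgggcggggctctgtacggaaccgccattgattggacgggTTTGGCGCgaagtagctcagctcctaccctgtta
Pola1: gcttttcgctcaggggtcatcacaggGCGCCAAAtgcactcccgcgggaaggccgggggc
Uhrf1: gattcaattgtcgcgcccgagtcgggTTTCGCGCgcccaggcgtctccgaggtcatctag

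The 4 genes below were among those at least 1.5-fold lower, and no E2F letters as spelled above lie in the windows of Mcm2, Mcm10, Rrm1 and Rrm2. CCAAT also occurred in 7 of 16 members less than 1.5-fold lower. Among these was Dnmt1, with 4 matches in a stretch not shown. CCAAT or its reverse ATTGG is in capitals. The Mcm2 stretch is chr6:88898925-88898981 and the Mcm10 stretch chr2:5012792-5012915, both on the minus strand. The Rrm1 stretch is chr7:102441578-102441680 and the Rrm2 stretch chr12:24708178-24708234, both on the plus strand. Rrm1 and Mcm10 each hold 2 matches.
Mcm2: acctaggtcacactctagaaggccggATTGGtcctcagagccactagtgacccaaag
Mcm10: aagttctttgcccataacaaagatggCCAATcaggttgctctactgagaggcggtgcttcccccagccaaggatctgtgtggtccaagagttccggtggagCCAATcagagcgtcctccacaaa
Rrm1: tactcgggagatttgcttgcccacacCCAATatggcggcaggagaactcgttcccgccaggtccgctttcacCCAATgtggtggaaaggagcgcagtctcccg
Rrm2: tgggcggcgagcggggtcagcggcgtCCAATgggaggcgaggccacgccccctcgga

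**Figure D2:**
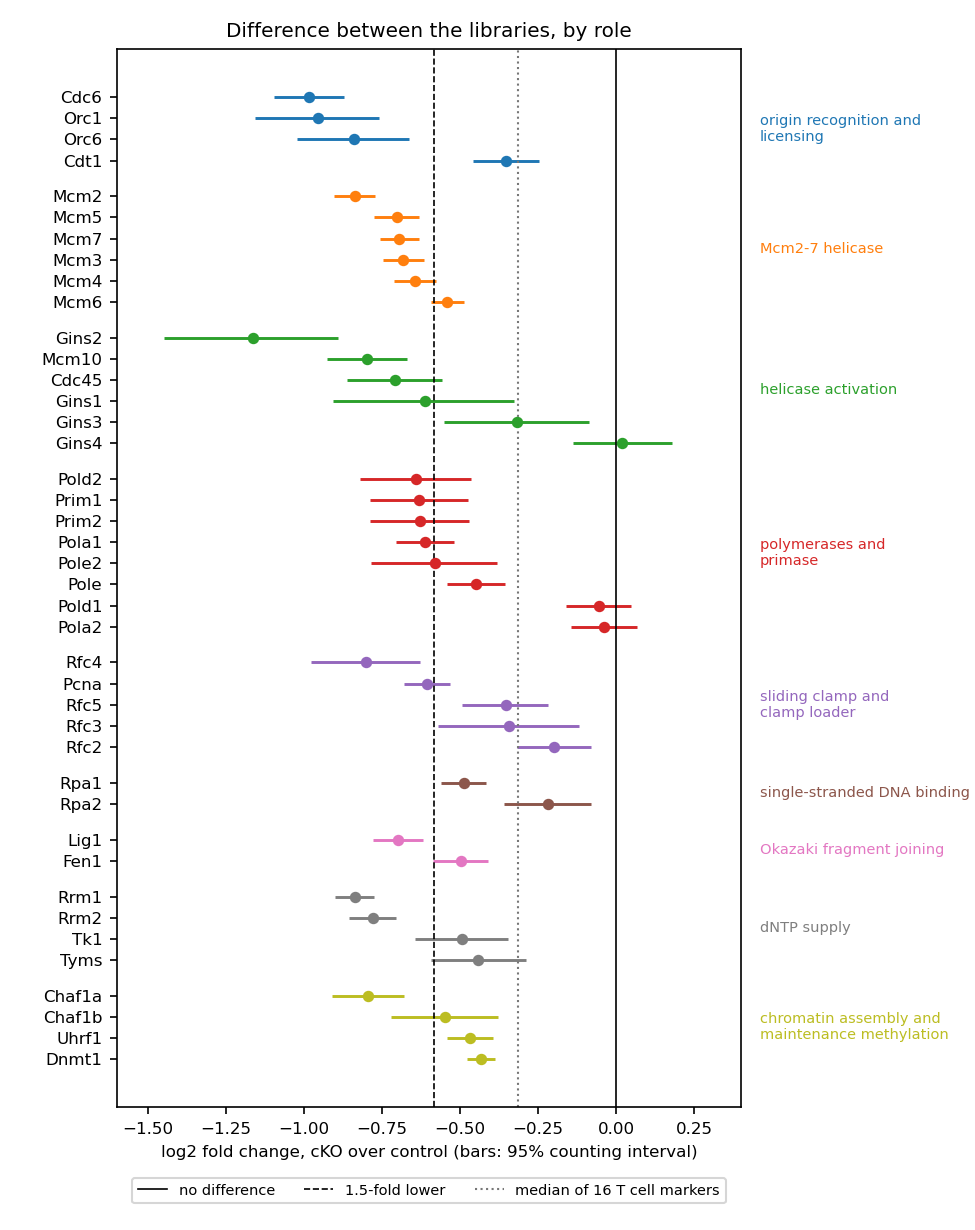
Log2 fold change of the deposited level, cKO over control, for each of the 41 genes with its 95% counting interval, coloured by role and ordered within a role. The dashed line marks 1.5-fold lower, with 22 points to its left, and the dotted line marks the T cell marker median of -0.31, which every point except Gins4, Pola2, Pold1, Rfc2 and Rpa2 lies below.

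The genes of origin recognition and licensing were among the lowest in the cKO library, and 3 of 4 were at least 1.5-fold lower. Cdc6, the ATPase that loads the helicase together with the origin recognition complex, had 2155 reads in the control and 926 in the cKO library, with a log2 fold change of -0.98 (-1.10 to -0.87). Orc1, the origin recognition subunit that is itself regulated in the cell cycle, had 685 and 300 reads (-0.96, -1.16 to -0.76). Orc6, the smallest subunit of the complex, had 799 and 379 reads (-0.84, -1.02 to -0.66). Cdt1, which brings the helicase to the origin and whose protein is degraded once S phase starts, had 1820 and 1213 reads and a log2 fold change of -0.35 (-0.46 to -0.25). The ratio of Cdc6 to Cdt1 reads was therefore lower in the cKO library, with a log2 difference of -0.63 (-0.79 to -0.48), although both act in the same loading step. This pair and the other pairs within complexes given below were chosen after their values had been seen.

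The 6 helicase subunits lay between -0.84 and -0.54 in log2 fold change, and together they held 34751 reads in the control and 18543 in the cKO library. Mcm2 had 5740 and 2732 reads, the lowest log2 fold change of the 6 at -0.84 (-0.90 to -0.77). Mcm5 with 4541 and 2373 reads stood at -0.70, and Mcm7 with 5974 and 3138 reads also at -0.70. Mcm3 had 5462 and 2895 reads (-0.68) and Mcm4 5209 and 2833 reads (-0.65). Mcm6, with 7825 and 4572 reads, was the only subunit less than 1.5-fold lower, at -0.54 (-0.59 to -0.49). The intervals of Mcm3, Mcm4, Mcm5 and Mcm7 overlapped one another, whereas the Mcm2 to Mcm6 ratio differed between the libraries by -0.30 on the log2 scale (-0.38 to -0.21), a difference beyond counting error.

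Among the genes that activate the loaded helicase, 4 of 6 were at least 1.5-fold lower and the members of 1 complex went apart. Mcm10, which is needed for the loaded helicases to start unwinding DNA, had 1537 and 752 reads (-0.80, -0.93 to -0.67). Cdc45, the helicase cofactor that travels with the fork, had 1038 and 540 reads (-0.71, -0.86 to -0.56). Of the 4 GINS subunits, Gins2 had 396 reads in the control and 150 in the cKO library, and its log2 fold change of -1.16 (-1.45 to -0.89) was the lowest of all 41 genes. Gins1 had 281 and 156 reads (-0.61, -0.91 to -0.33), the fewest in the control library among the 41. Gins3 had 380 and 259 reads (-0.32, -0.55 to -0.09), and Gins4 had 699 and 603 reads (0.02, -0.14 to 0.18). Gins2 minus Gins4 gave a difference in log2 fold change of -1.19 (-1.50 to -0.87), and this was the widest gap among the 10 pairs compared. The exons of Gins2 overlap those of Gse1 on the opposite strand, and the sources used here do not say whether reads were counted by strand.

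The polymerase and primase genes split into a lower set and a set with little difference, with 4 of 8 at least 1.5-fold lower. Pola1, the catalytic subunit of polymerase alpha, had 2626 and 1461 reads (-0.61, -0.71 to -0.52), while Pola2, its regulatory subunit, had 1627 and 1348 reads (-0.04, -0.14 to 0.07). Prim1, the primase that makes the RNA primer, had 936 and 514 reads, and Prim2, its partner subunit, had 931 and 512. Both primase genes stood at a log2 fold change of -0.63, with a difference between them of -0.0021 (-0.22 to 0.22). Pold1, the catalytic subunit of polymerase delta, had 1670 and 1366 reads (-0.06, -0.16 to 0.05), and Pold2, an accessory subunit of the same enzyme, had 732 and 399 (-0.64, -0.82 to -0.46). Pole, the catalytic subunit of polymerase epsilon, had 2461 and 1532 reads (-0.45, -0.54 to -0.36), and Pole2, its second subunit, had 567 and 322 (-0.58, -0.78 to -0.38). Polymerases alpha and delta thus each held 1 subunit gene that was lower and 1 whose interval included 0. The log2 difference was -0.57 for Pola1 against Pola2 (-0.71 to -0.44) and -0.59 for Pold2 against Pold1 (-0.79 to -0.38).

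Pcna, the sliding clamp that holds the polymerases on DNA, had 4102 and 2292 reads, a log2 fold change of -0.61 (-0.68 to -0.53). It was the member nearest to the 1.5-fold threshold among those past it, and Pole2 at -0.58 was the nearest among those short of it. The clamp loader subunits were less uniform. Rfc4 had 830 and 405 reads (-0.80, -0.98 to -0.63), whereas Rfc5 with 1078 and 717 reads stood at -0.35, Rfc3 with 409 and 274 reads at -0.34 and Rfc2 with 1366 and 1012 reads at -0.20. Rfc4 against Rfc2 gave a log2 difference of -0.60 (-0.81 to -0.39), and the exons of Rfc2, Rfc4 and Rfc5 each overlap those of a neighbouring gene on the opposite strand. The genes for RPA, the protein that coats single-stranded DNA at the fork and in repair, were lower by less than 1.5-fold. Rpa1 had 4256 and 2580 reads (-0.49, -0.56 to -0.42) and Rpa2 had 983 and 718 (-0.22, -0.36 to -0.08). Lig1, the ligase that seals Okazaki fragments, had 3768 and 1974 reads (-0.70, -0.78 to -0.62). Fen1, the nuclease that trims their flaps, had 2767 and 1667 reads (-0.50, -0.59 to -0.41).

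The enzymes that supply deoxynucleotides had a summed log2 ratio of -0.76 (-0.80 to -0.71), from 12593 reads in the control and 6339 in the cKO library. Rrm1, the large subunit of ribonucleotide reductase, had 6428 and 3060 reads (-0.84, -0.90 to -0.78). Rrm2, the small subunit made in S phase, had 4267 and 2113 reads (-0.78, -0.86 to -0.71), so that the genes of both subunits were lower to a similar extent. Tk1, the thymidine kinase of dividing cells, had 978 and 590 reads (-0.50, -0.65 to -0.35), and Tyms, thymidylate synthase, had 920 and 576 (-0.44, -0.60 to -0.29). Genes of nucleotide control that are not tied to S phase had values above 0. Rrm2b, the small reductase subunit used by resting cells and after DNA damage, had 709 and 692 reads (0.20, 0.05 to 0.35). Samhd1, the hydrolase that breaks down deoxynucleotides and is abundant in myeloid cells, had 13254 and 16781 reads (0.57, 0.54 to 0.61). Reads on macrophage markers were also higher in the cKO library, 4195 against 11914, and their part in the Samhd1 difference was not tested.

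Genes that rebuild chromatin and copy DNA methylation behind the fork were lower with 1 of 4 past 1.5-fold. Chaf1a, the large subunit of the histone chaperone CAF-1, had 1826 and 895 reads (-0.79, -0.91 to -0.68), and Chaf1b, another subunit of it, had 755 and 439 (-0.55, -0.72 to -0.38). Dnmt1, the maintenance DNA methyltransferase, was the member with the most reads, 10334 in the control and 6505 in the cKO library (-0.43, -0.48 to -0.39). Uhrf1, which brings DNMT1 to newly copied DNA, had 3966 and 2438 reads (-0.47, -0.54 to -0.40) and so stood close to Dnmt1. Which of the 9 roles stood lowest depended on the measure. By summed reads deoxynucleotide supply (-0.76, -0.80 to -0.71) and licensing (-0.72, -0.79 to -0.65) had overlapping intervals, and RPA (-0.43) and the polymerases (-0.40) stood highest. By the median over genes licensing stood at -0.90, deoxynucleotide supply at -0.64 and the polymerases at -0.60, and the clamp and RPA genes were highest at -0.35 each.

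**Figure D3:**
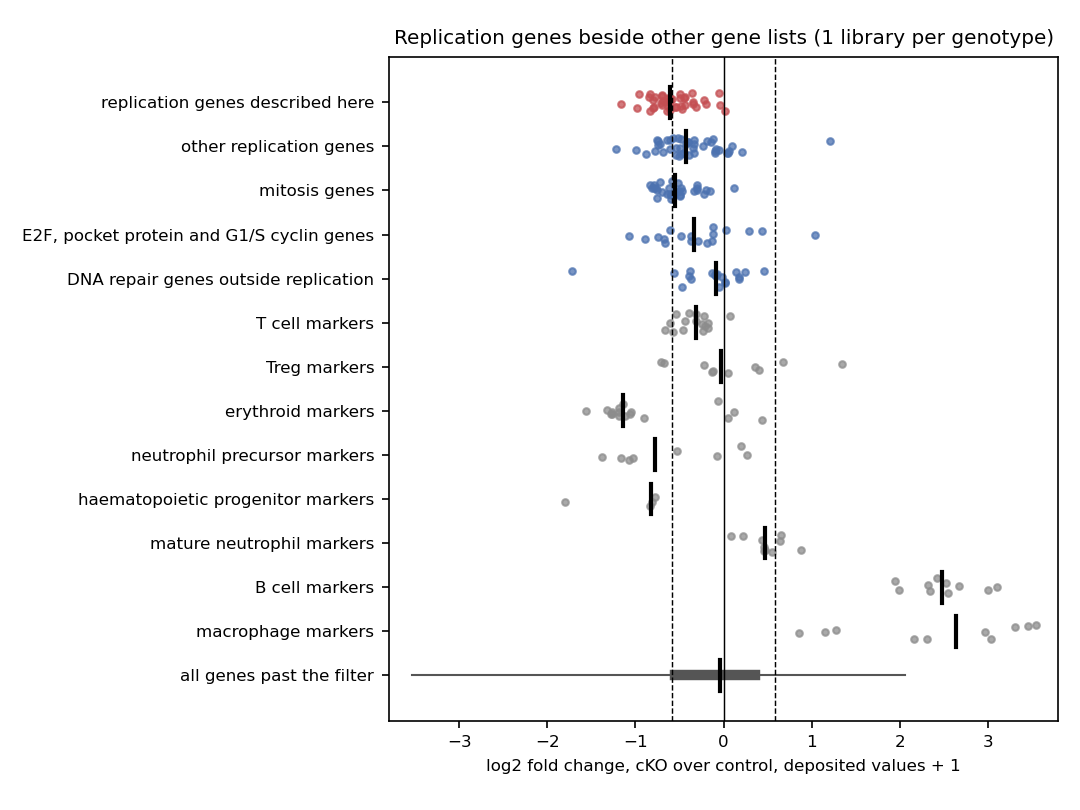
Log2 fold change of each gene, cKO over control, for the 41 replication genes (red), 4 lists of other cell cycle, replication and repair genes (blue) and 8 lists of cell type markers (grey), with the median of each list as a black bar and the 1.5-fold lines dashed. For all genes past the filter the thick bar spans the quartiles of -0.55 and 0.35 and the thin line the 5th and 95th percentiles of -3.54 and 2.06. The replication genes had a median of -0.61 and the mitosis genes -0.55, and both medians lay between those of the T cell markers (-0.31) and the erythroid markers (-1.14).

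Other genes of the replication machinery were shifted in the same direction with a wider spread. Of 43 such genes 12 were at least 1.5-fold lower and 1 higher, beside 24.2% and 17.2% of all genes past the filter, with a median of -0.42. Among the 9378 genes at or above the level of the least abundant member 7.27% were lower. The 43 were not held to that level. With the T cell markers set equal 2 of the 43 were lower and 1 higher, beside 19.2% and 28.8% of all genes, with a median of -0.11. Of the 9378 genes 2.40% were then lower. Orc2, a core origin recognition subunit, had 2044 and 746 reads (-1.22, -1.34 to -1.10), and Recql4, a helicase that helps start replication, had 687 and 292 (-1.00, -1.20 to -0.80). Pold4, the smallest subunit of polymerase delta, was the 1 higher gene, with 445 reads in the control and 877 in the cKO library (1.21, 1.05 to 1.38). Polymerase delta therefore held subunit genes on both sides of 0, with Pold2 at -0.64, Pold1 at -0.06 and Pold4 at 1.21. Among the most abundant of the 43, Topbp1, a scaffold of helicase activation, and Chtf8, a part of an alternative clamp loader, stood at -0.33 and -0.34. Mcmbp, which binds MCM subunits, stood at -0.09 and changed sign to 0.22 when the T cell markers were set equal.

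Genes that control entry into S phase had a median of -0.33 over 18 genes. Of these 6 were at least 1.5-fold lower and 1 higher, beside 24.2% and 17.2% of all genes past the filter. Among the 9378 genes at or above the level of the least abundant member 7.27% were lower. With the T cell markers set equal 1 of the 18 was lower and 3 were higher, beside 19.2% and 28.8% of all genes past the filter. Of the 9378 genes 2.40% were then lower. The median of the 18 was then -0.02. Ccne2, an E-type cyclin that drives G1/S, had 564 and 228 reads (-1.07, -1.30 to -0.85), and E2f5, a repressive family member, had 190 and 87 (-0.89, -1.28 to -0.52). E2f2, an activating member of the E2F family, was the 1 higher gene with 1229 and 2150 reads (1.04, 0.94 to 1.14). E2f4 and its partner Tfdp1 were lower by less than 1.5-fold at -0.38 and -0.37, and the pocket protein gene Rbl2 stood at 0.29 (0.22 to 0.36). The mitosis genes had values near those of the 41, with a median of -0.55. Of the 31 mitosis genes 15 were at least 1.5-fold lower and none higher, beside the same 24.2% and 17.2% of all genes. The share lower among the 9378 was again 7.27%. With the T cell markers set equal 0 of the 31 were past 1.5-fold in either direction, and the median was -0.24. Mki67, the proliferation marker, had 44887 and 25205 reads and Top2a, which untangles sister chromosomes, had 12221 and 6884, with log2 fold changes of -0.60 and -0.59. Cdk1, the kinase that starts mitosis, had 1445 and 690 reads (-0.83, -0.97 to -0.70), Ube2c stood at -0.81, Ect2 at -0.79 and Cenpf at -0.59. Repair genes outside replication had a median of -0.08 over 20 genes, which became 0.23 when the T cell markers were set equal. Of the 20 repair genes 1 was at least 1.5-fold lower, beside 24.2% of all genes past the filter and 7.27% of the 9378. That gene was Nthl1, a base excision glycosylase with 45 and 11 reads, whose level was below that of the 9378. The abundant repair genes Ddb1, Parp1 and Lig3 stood at -0.37, -0.09 and -0.08, of which the last 2 were above 0 with the T cell markers equal, while Xrcc5 and Xrcc6, whose products bind broken ends as Ku, stood at -0.57 and -0.48.

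Ratios within a library do not depend on how the libraries were scaled, and they place the replication genes against each list in turn. Per read on mitosis genes there were 0.976 reads on the 41 genes in the control library (0.968 to 0.984) and 0.954 in the cKO library (0.943 to 0.964). The log2 difference of -0.03 was small, although these intervals do not overlap. Mki67 held 44887 and 25205 of the mitosis reads. Without it the values were 1.67 (1.66 to 1.69) and 1.60 (1.58 to 1.62), a log2 difference of -0.06. Per read on the T cell markers the value was 1.60 in the control library (1.59 to 1.62) and 1.35 in the cKO library (1.34 to 1.37). The replication genes were thus lower also relative to T cell RNA, with a log2 difference of -0.24. Per read on the 10 Treg markers the value was 12.5 in the control (12.2 to 12.8) and 7.70 in the cKO library (7.52 to 7.88), a log2 difference of -0.70. These 10 markers did not differ together, with 5 below 0 and 5 above and log2 fold changes from -0.71 to 1.35. The counting interval does not cover that spread. Per read on the erythroid markers the value was higher in the cKO library, 2.39 (2.36 to 2.43) against 1.91 (1.89 to 1.93). The same held for the neutrophil precursor markers, with 4.79 in the control and 5.82 in the cKO library, and for the progenitor markers, with 10.3 and 12.3. Erythroid, neutrophil precursor and progenitor reads therefore differed between the libraries in the same direction as replication gene reads and by more, and their part in the replication result was not tested. Per read on the B cell markers the value was 13.6 in the control and 1.62 in the cKO library, and the part of the added B cell and macrophage RNA in the result was not tested either.

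**Figure D4:**
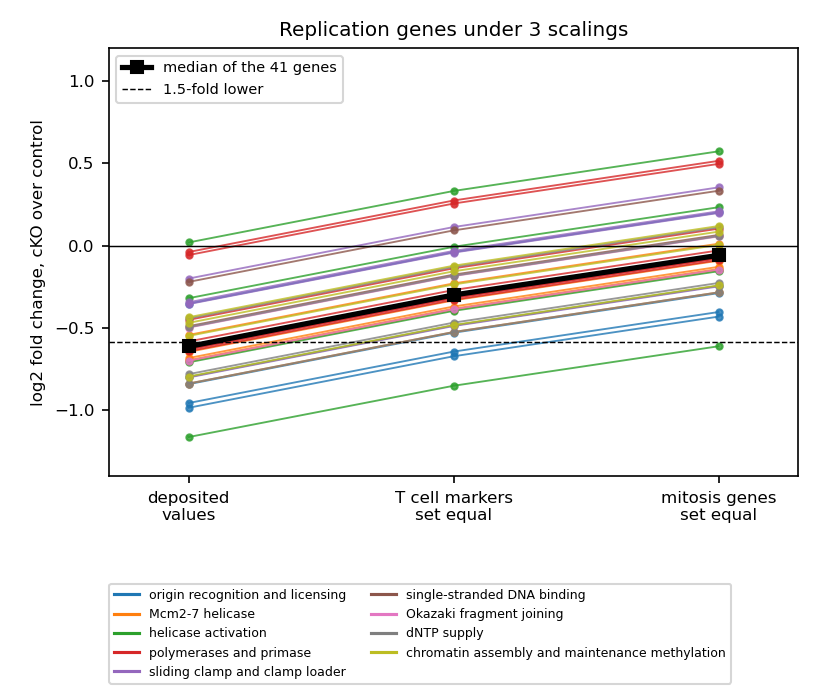
Log2 fold change of each of the 41 genes (thin lines, coloured by role) and their median (black squares) on the deposited values, with the T cell markers set equal and with the mitosis genes set equal. The median runs from -0.61 through -0.30 to -0.06, and the genes past the dashed 1.5-fold line number 22, 3 and 1. Each scaling multiplies all cKO values by 1 constant, so it cannot alter the order of the genes and barely alters the distances between them.

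How many of the 41 counted as lower depended on what was held equal between the libraries. The count was 22 on the deposited values, 23 with median-of-ratios scaling, 23 with TMM factors and 27 with equal library totals. The shares of all genes past the filter were 24.2%, 24.5%, 24.7% and 26.6% in that order. Setting the T cell markers equal took the all-gene median from -0.04 to 0.27 and the median of the 41 from -0.61 to -0.30, and 3 of the 41, Cdc6, Orc1 and Gins2, were still at least 1.5-fold lower. Beside them 19.2% of all genes past the filter were lower, and 2.40% of the 9378 genes at or above the level of the least abundant of the 41. The log2 fold changes of Pola2 (0.27), Pold1 (0.26), Rfc2 (0.11) and Rpa2 (0.09) were then above 0 together with Gins4 (0.33), and 36 of the 41 were below 0. With the mitosis genes set equal, an alternative chosen after seeing the data, Gins2 at -0.61 was the 1 gene past the threshold, and 18 of the 41 were above 0. The all-gene median was then 0.51, with 17.2% of all genes past the filter at least 1.5-fold lower and 44.3% higher, and 1.17% of the 9378 lower. On the deposited values Gins2 was also the 1 gene at least 2-fold lower, beside 18.1% of all genes and 1.72% of the 9378. With the mitosis genes set equal, the medians of the clamp and clamp loader genes (0.20), RPA (0.20) and the chromatin and methylation genes (0.05) stood above 0. Those of licensing (-0.35), the helicase (-0.13), deoxynucleotide supply (-0.08), helicase activation (-0.11), Okazaki fragment joining (-0.04) and the polymerases (-0.04) stayed below 0. Each of these scalings multiplies all cKO values by 1 constant, which moves the 41 genes and the median of all genes together. The number of the 41 below that median, 39, therefore could not differ between them. Gins4 was below 0 with TMM factors or equal library totals.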

How the data were processed

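Treg cells of 1 littermate control and 1 cKO library (spleen, day 7) were analysed. The deposited values are a signal, namely read counts per gene that the authors divided by 1 size factor per library. All values were whole multiples of the smallest one within 0.001, and dividing by it (0.967 and 1.14) recovered 20239325 and 18327535 reads. Per the labels and the paper reads were aligned to mm10 with TopHat, whereas the submitters' processing notes name bcl2fastq 2.0, STAR, StringTie and DESeq2. The annotation, strand setting and size factor method are not given in the sources used here.

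Fold changes used log2(value + 1) for genes whose mean level reached 1, and the 1.5-fold threshold of the study. The study's threshold of 0.1 names no quantity and was read as an adjusted p. The members and lists were chosen with earlier results of these data known. Named were all 41 members, Mettl14, Foxp3 and, in each comparison list, the 3 genes with the highest mean level and the 3 with the largest absolute log2 fold change among those with a mean level of at least 10. Marker lists were described by counts, medians and summed reads. Gene positions and exon lengths came from GENCODE release M21, which matched all 41 symbols, and promoter windows from RefSeq (GRCm38.p6). Intervals of pair differences are normal approximations on log counts. For scale, 3 reads equal 0.148 per 1000000 reads in the control and 0.164 in the cKO library, and no floor of 3 reads was applied. Python 3.11.15 (numpy 2.4.6, pandas 2.3.3, scipy 1.17.1, matplotlib 3.10.9) and R 4.3.3 (edgeR 4.0.16, DESeq2 1.42.0) were used, and the scripts were tested on simulated data. Alternatives were other pseudocounts, filters, scalings, thresholds and count tests.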

Additional observations from a re-analysis of the deposited data

How the results depend on the processing

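Pseudocounts of 0.1 or 5 left the count at 22. It was 23 with median-of-ratios scaling, 23 with TMM factors and 27 with equal library totals, beside 24.5%, 24.7% and 26.6% of all genes past the filter. The summed log2 ratio of -0.59 was -0.60 with median-of-ratios scaling, -0.61 with TMM factors, -0.68 with equal library totals, -0.27 with the T cell markers equal and -0.60 without Dnmt1. With the T cell markers equal 3 genes were at least 1.5-fold lower and the median was -0.30. Of all genes past the filter 19.2% were then at least 1.5-fold lower and 28.8% higher. With the mitosis genes equal, where 17.2% of all genes were lower, the count was 1 and the median -0.058. Past 2-fold the count was 1, beside 18.1% of all genes past the filter. Without the 15 genes whose exons overlap another gene it was 14 of 26. edgeR's exact test called 2 genes (Cdc6 and Gins2) when the biological coefficient of variation was taken as 0.2, beside 1488 of 14863 genes lower. With 0.4 it called 0, beside 569 lower and 229 higher. The exact binomial test called 22, which the read depth of these genes fixed in advance. The count tests, the mitosis scaling and the overlap alternative were chosen after seeing the data. The filters cannot alter a value of these genes, whose lowest mean level was 224.6. Of 246 single gene values under the other 6 alternatives 191 stayed within their counting interval, and 41 of the 55 that did not were those with the T cell markers equal. No paired analysis was possible because there was 1 library of each genotype, and for the same reason no replicate could be left out. Counting limits the values of the least covered gene, Gins1, most, with 437 reads in both libraries together.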

Other observations

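Of the 41 replication genes 5 (12.2%) have a protein-coding neighbour that starts within 1000 bases on the other strand, beside 8.26% of 16315 genes checked. In each of these pairs the neighbour had a higher log2 fold change than the replication gene. These 5 replication genes all lay below the all-gene median of -0.04, so most genes set beside them would stand higher. The pairs therefore show nothing particular to neighbouring starts. Orc1 at -0.96 starts 87 bases from Prpf38a, a splicing factor gene at -0.21 (95% counting interval -0.36 to -0.07). Mcm4 at -0.65 is paired with Prkdc, the catalytic subunit of a repair kinase, which had 3376 and 2577 reads and stood at -0.16 (-0.23 to -0.08). Pole at -0.45 is paired with Pxmp2 at -0.26 (-0.72 to 0.18), Gins1 at -0.61 with Abhd12 at 0.56 (0.41 to 0.70), and Rpa1 at -0.49 with Smyd4 at 0.52 (0.22 to 0.83). None of the 5 neighbours was at least 1.5-fold lower or higher.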
